A study of Homo sapiens with 2 samples.

Results

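The cyclophilins PPIA, PPIB, PPIC, PPID, PPIE, PPIF, PPIG, PPIH, PPIL1 and PPIL2 were followed in HT-29, a cell line from a human colorectal adenocarcinoma, after transfection with siRNAs against MYC. The 10 genes, of 19775 with a probe set of their own, were measured by every probe set that the platform annotation assigns to one of them alone, which gave 27 of the 54675 probe sets on the array, from 1 to 6 per gene. Of the 27, 20 exceeded a signal of 50 in at least 1 array and 7 did not. A further 6 probe sets list PPIA together with its pseudogene copy PPIAP34 and were left out. Each condition had 1 array. One held total RNA from cells transfected with an ON-TARGETplus SMART pool of siRNAs against MYC, and the other RNA from cells given the non-targeting pool, each at 20 nM in lipofectamine RNAiMAX. Cells were transfected for 24 h and used after 48 h. The treatment field of the control sample reads None, while the protocol describes the non-targeting pool, and it is called control siRNA here. The comparison addresses which transcripts differ between the MYC siRNA array and the control siRNA array. No difference can be set against replicates, since every condition is a single array, so neither an error nor a p-value is given.

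Cyclophilins are peptidyl-prolyl isomerases. They catalyse the turn of the peptide bond before proline, which can be a slow step in protein folding, and several of them are the targets of the immunosuppressant cyclosporin A. Members share one catalytic domain and differ in where they act. PPIA and PPID lie in the cytosol, PPIB and PPIC in the secretory pathway, PPIF in the mitochondrial matrix, and PPIE, PPIG, PPIH, PPIL1 and PPIL2 in the nucleus, largely in or near the spliceosome. PPIF, also called cyclophilin D, is best known as the regulator that sensitises the mitochondrial permeability transition pore to calcium. PPIA and PPIB are commonly used as reference genes for normalising mRNA measurements.

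MYC binds DNA with its partner MAX at E-boxes, of which CACGTG is the canonical form and CACGCG a common variant. The promoters of members with the widest differences are therefore shown, with the 250 bases before the RefSeq transcription start read 5′ to 3′ on the gene's strand (GRCh38.p14). Capitals mark matches to CACGTG or to CACGCG on either strand, the latter read as CGCGTG on the opposite strand. PPIF lies at chr10:79347219-79347468 on the plus strand, PPIC at chr5:123036726-123036975 on the minus strand, PPIH at chr1:42658173-42658422 on the plus strand and PPIB at chr15:64163023-64163272 on the minus strand.
PPIF: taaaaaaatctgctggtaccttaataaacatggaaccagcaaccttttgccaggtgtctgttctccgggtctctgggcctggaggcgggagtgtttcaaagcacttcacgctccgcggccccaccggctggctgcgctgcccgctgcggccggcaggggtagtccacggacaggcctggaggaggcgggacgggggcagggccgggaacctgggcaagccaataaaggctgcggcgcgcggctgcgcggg
PPIC: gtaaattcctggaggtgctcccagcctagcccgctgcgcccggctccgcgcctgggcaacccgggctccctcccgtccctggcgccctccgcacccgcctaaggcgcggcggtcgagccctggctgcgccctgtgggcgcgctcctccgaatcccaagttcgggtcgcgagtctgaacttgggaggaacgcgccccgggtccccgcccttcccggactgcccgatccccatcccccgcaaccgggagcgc
PPIH: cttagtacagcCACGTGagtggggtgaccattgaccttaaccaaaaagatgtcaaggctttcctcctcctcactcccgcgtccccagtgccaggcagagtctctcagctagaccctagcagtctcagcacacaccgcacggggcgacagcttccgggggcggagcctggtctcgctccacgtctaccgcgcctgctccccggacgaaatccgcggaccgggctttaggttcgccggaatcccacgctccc
PPIB: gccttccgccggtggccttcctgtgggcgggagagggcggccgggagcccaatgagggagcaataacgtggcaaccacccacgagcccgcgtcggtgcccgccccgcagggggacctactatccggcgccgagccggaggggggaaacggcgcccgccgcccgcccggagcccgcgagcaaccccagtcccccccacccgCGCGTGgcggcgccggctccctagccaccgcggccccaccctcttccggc

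A RefSeq window of 300 bases, which adds 50 bases after the start, was at hand for 8 of the 10 genes, all but PPIE and PPIG. CACGTG occurred in 1 of the 8, PPIH, beginning 239 bases before the start, against 7.26% of all 35116 promoter windows. CACGCG occurred in 3 of the 8, beginning 50 bases before the start in PPIB, 110 in PPID and 169 in PPIA, against 11.4% of all windows. The shares of all windows were not matched for GC content, which in the 250 bases before the start was 77.6% in PPIB, 59.2% in PPID and 71.6% in PPIA. No matches overlapped one another. Neither PPIF nor PPIC, the members with the lowest and the highest ratio, holds these letters in its window. A match is a run of letters and was not measured as a binding site.

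Signals were the authors' MAS5 intensities, scaled to a mean target level of 100 on each array. As in the methods, values under 50 were set to 50 before the MYC siRNA array was divided by the control array, and a ratio of at least 2 or at most 0.5 marked UP and DOWN DEGs. In its only probe set, the targeted gene MYC gave 1963 in the control array against 1640 in the MYC siRNA array, which is 1.2-fold lower. Of 680 other probe sets with a mean signal within 1.3-fold of it, 190 (27.9%) had a ratio at least as low, around a median log2 ratio of -0.10 beside -0.26 for MYC. The MYC mRNA thus showed little difference between the arrays, and the groups are named by their labels. For MYC knockdown the paper reports immunoblots of MYC, decreased cell growth and decreased expression of curated MYC target genes. None of these was re-examined here. For ACTB the 3' to 5' signal ratio was 1.16 in the control and 1.14 in the MYC siRNA array, and for GAPDH 1.0 and 1.02. Of 10 colon epithelial markers 8 exceeded 50, including EPCAM, KRT8, KRT18 and KRT20, while CDX1 and CDX2 did not, and 1 of 8 markers of leukocytes, endothelium and fibroblasts did, COL1A1 at 94.7 and 78.9. In RNA from a culture, fewer cells with a transcript and less of it per cell cannot be told apart. Ratios depended somewhat on brightness, and when probe sets were split into 5 groups of equal size, the median log2 ratio was 0.08 for the dimmest group and -0.11 for the brightest, so each member is set beside probe sets of like signal below.

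**Figure D1:**
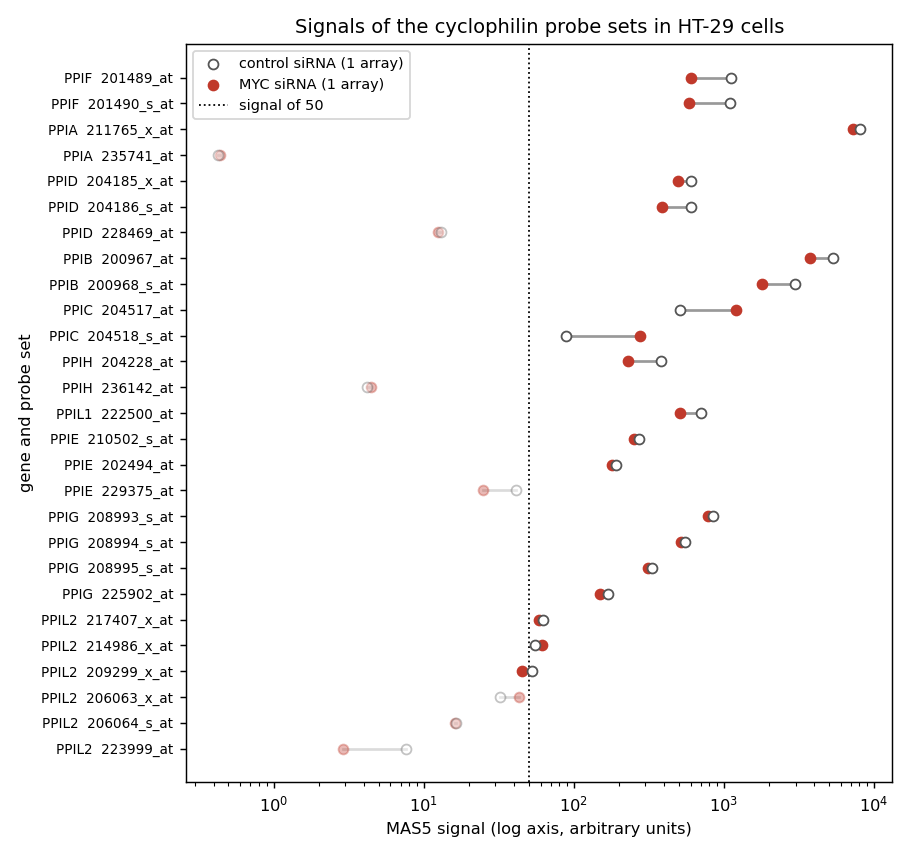
MAS5 signal on a log axis (x) of all 27 cyclophilin probe sets (y, grouped by gene) with control siRNA (open circles) and MYC siRNA (red circles), 1 array each; the dotted line marks a signal of 50 and faded points lie at or under it in both arrays. Red points lie left of the open ones in both probe sets of PPIF (1113 to 606 and 1094 to 585) and right of them in both of PPIC (512 to 1212 and 89.3 to 276).

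Most cyclophilins had lower values with MYC siRNA, several within the bulk of probe sets of like signal, and PPIC alone was clearly higher. Of the 20 probe sets above 50, 17 were lower and 3 higher, where 49.2% of the 17127 probe sets above 50 on the whole array were lower and 50.8% higher. At 1.5-fold, 5 were lower, from PPIF, PPIB, PPIH and PPID, which is 25% against 5.83% of all probe sets. None was lower by 2-fold, against 0.607% of all. Both probe sets of PPIC, 10% of the 20, were higher by over 2-fold, against 9.13% of all probe sets higher by at least 1.5-fold and 2.19% by at least 2-fold. Probe sets of one gene share its transcript and are not independent. The members were chosen with earlier results of these data known, so shares set beside them are a description and not a test. Each gene was next represented by its brightest probe set. Of 10 genes 9 were lower and 1 higher, against 46.5% and 53.5% of the 8917 genes above 50. The 9 include PPIA, whose sign turned under other scalings. PPIE, PPIG and PPIL2, also among the 9, lay within the bulk of probe sets of like signal. PPIF and PPIH, 2 of the 10, were lower by at least 1.5-fold, against 5.72% of all genes, and none by 2-fold, against 0.695%. PPIC, 1 of the 10, was higher by over 2-fold, against 10.4% of all genes higher by at least 1.5-fold and 2.73% by at least 2-fold. The median log2 ratio was -0.22 over the 10 genes and 0.03 over all genes above 50.

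The mitochondrial cyclophilin PPIF had the lowest ratio of the 10. Its brighter probe set gave 1113 with control siRNA against 606 with MYC siRNA, which is 1.84-fold lower. Its other probe set gave 1094 against 585, or 1.87-fold lower. The pair thus gave log2 ratios of -0.88 and -0.90, closer to each other than the SD of 0.18 between probe sets of one gene among equally bright genes. That SD is the spread of single probe sets around their gene's mean, and a pair commonly differs by more than it. Of 1328 other probe sets with a mean signal within 1.3-fold of that of the brighter one, 21 (1.58%) had a ratio at least as low, and their median log2 ratio was -0.06. Among 8916 other genes above 50, 111 (1.24%) had a ratio as low as that of PPIF. It stayed short of the 2-fold rule for DOWN DEGs in both probe sets.

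The secretory-pathway cyclophilins PPIB and PPIC went opposite ways. PPIB, which resides in the endoplasmic reticulum and assists the folding of collagen, gave 5311 in the control array against 3743 in the MYC siRNA array in its brighter probe set, 1.42-fold lower. The other gave 2984 against 1798, 1.66-fold lower. Only the second passed 1.5-fold. Their log2 ratios of -0.50 and -0.73 differed by more than the SD of 0.18 between probe sets, a gap of common size for a pair. Of 253 other probe sets about as bright as the first, 12 (4.74%) had a ratio at least as low, around a median log2 ratio of -0.18.

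PPIC, or cyclophilin C, gave 512 in the control array against 1212 in the MYC siRNA array in its brighter probe set, 2.37-fold higher. Its dimmer probe set gave 89.3 against 276, 3.09-fold higher. Both signals in both arrays were above 50, so neither fold rests on the floor, and both passed the 2-fold rule for UP DEGs. The log2 ratios of 1.24 and 1.63 differed by more than the SD between probe sets of one gene (0.23 over all genes), so the size was not settled. Both were higher, but they read the same 2 arrays and are not replicates of the condition. Of 1327 other probe sets about as bright as the brighter one, 12 (0.904%) had a ratio at least as high, and 123 of 8916 other genes above 50 (1.38%) did. Of the 8 colon epithelial markers above 50, 6 were higher in the same array, against 53.5% of all genes. CEACAM5, an adhesion molecule of the epithelial surface, gave 281 in the control array against 613 in the MYC siRNA array. This was 2.18-fold higher, the largest ratio of the 8, while EPCAM (5156 and 4512) was 1.14-fold lower. The keratins KRT19 (3720 and 5649) and KRT20 (4973 and 7034) were 1.52-fold and 1.41-fold higher, while KRT8 (8243 and 9306) was 1.13-fold higher and KRT18 (9363 and 9158) 1.02-fold lower. Summed over the 10 markers, most of it from those keratins, the signal was 34845 in the control array against 39778 in the MYC siRNA array. The 8 markers of other cell types summed to 175 and 152, and the part of either list in the ratio of PPIC was not tested.

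Among the cytosolic cyclophilins, PPIA, the most studied target of cyclosporin A, differed little. It gave 8108 with control siRNA against 7294 with MYC siRNA, 1.11-fold lower. Probe sets of like brightness had a median log2 ratio of -0.19, beside -0.15 for PPIA, and 123 of 187 (65.8%) had a ratio at least as low. After quantile normalization and loess on mean signal its log2 ratio was 0.02 and 0.04, so no direction is given for PPIA. Its probe set is of a type that can bind several transcripts, and PPIA has near-identical pseudogene copies. The second probe set of PPIA was at 0.426 and 0.437, far under 50.

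PPID carries, beside the isomerase domain, a region that docks on the chaperone HSP90. It gave 599 in the control array against 491 in the MYC siRNA array in its brighter probe set and 605 against 389 in the next. These are 1.22-fold and 1.55-fold lower, and their log2 ratios of -0.29 and -0.64 differ by more than the SD of 0.18 between probe sets. The direction of PPID was thus the same in both and its size was not settled. Of 1857 other probe sets about as bright as the first, 444 (23.9%) had a ratio at least as low. For the second this held for 104 of 1974 (5.27%). The remaining probe set was under 50 in both arrays.

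The nuclear cyclophilins split into members that were lower and members close to equal. PPIH, a component of the U4/U6 small nuclear ribonucleoprotein, gave 383 in the control array against 229 in the MYC siRNA array, 1.67-fold lower. Of 2573 other probe sets of like brightness, 75 (2.91%) had a ratio at least as low, around a median log2 ratio of 0.01. PPIL1, which sits in the activated spliceosome, gave 703 against 506, 1.39-fold lower, with 197 of 1774 like probe sets (11.1%) at least as low. Each of these genes rests on 1 probe set, since the second of PPIH was at 4.16 and 4.42.

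PPIG, an RS-domain cyclophilin of nuclear speckles, had 4 probe sets, all above 50, with signals of 848, 548, 330 and 170 with control siRNA. With MYC siRNA they were 780, 519, 313 and 150, so that all 4 were lower by between 1.05-fold and 1.14-fold. PPIE, which pairs an RNA-binding domain with its isomerase domain, had 270 and 190 with control siRNA and 253 and 179 with MYC siRNA, 1.07-fold and 1.06-fold lower. The log2 ratios of PPIG and PPIE were no larger than the spread between probe sets of one gene (SD 0.18 to 0.27 from bright to dim genes) and within the bulk of probe sets of like brightness, of which between 27.5% and 44.5% were at least as low. PPIL2, a nuclear cyclophilin with a U-box of ubiquitin ligases, was near the floor. Its 3 probe sets above 50 had 62.4, 55.2 and 52.6 with control siRNA and 58.3, 61.4 and 45.3 with MYC siRNA. The first was 1.07-fold lower, the second 1.11-fold higher and the last at least 1.05-fold lower, so PPIL2 has no settled direction. Its other 3 probe sets were at or under 50 in both arrays.

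**Figure D2:**
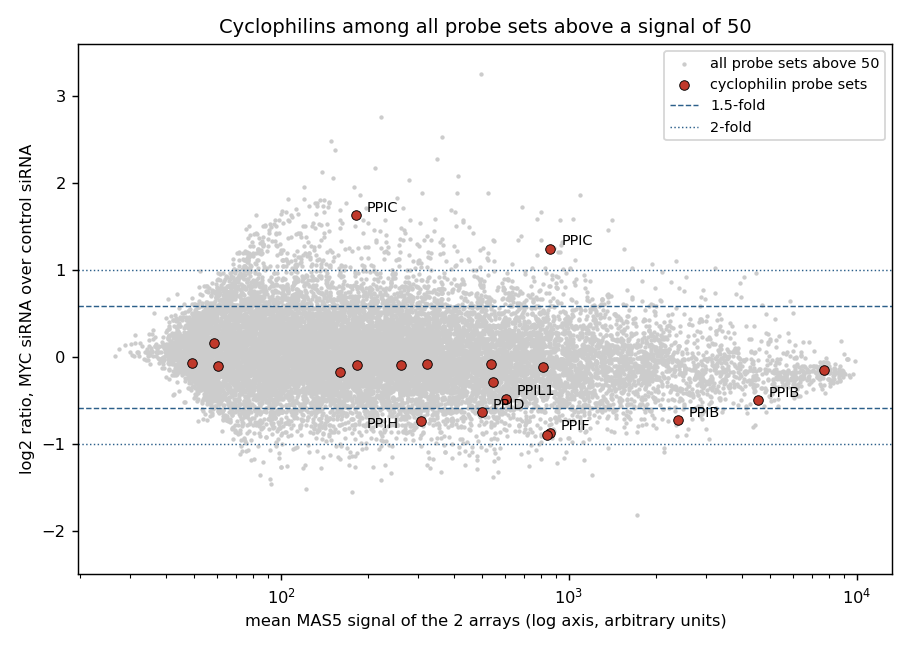
Log2 ratio of the MYC siRNA array to the control array (y) against the mean MAS5 signal of the 2 arrays on a log axis (x) for 17127 probe sets above 50 (grey) and the 20 cyclophilin probe sets among them (red, named where the log2 ratio is far from 0); dashed and dotted lines mark 1.5-fold and 2-fold. Both probe sets of PPIC lie above the 2-fold line and 5 of PPIF, PPIB, PPIH and PPID below the 1.5-fold line.

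The order of the 10 genes by log2 ratio ran from PPIF (-0.88) through PPIH (-0.74), PPIB (-0.50), PPIL1 (-0.48), PPID (-0.29), PPIA (-0.15), PPIG (-0.12), PPIL2 (-0.10) and PPIE (-0.09) to PPIC (1.24). Set against the SD of 0.23 between probe sets of one gene, the steps between neighbours from PPIF to PPIE were smaller or about equal. The widest of them, from PPIH to PPIB, was 0.23, and a pair commonly differs by more than this SD. The step from PPIE to PPIC was 1.34. The genes from PPIF to PPIE therefore form a series without clear breaks. The remaining cyclophilins, 14 further genes of which 7 have a probe set of their own, were set beside them. Of these 7, 6 exceeded 50 and all 6 were lower, none by 1.5-fold, with a median log2 ratio of -0.28. NKTR, a large cyclophilin with an RS domain, was 1.4-fold lower in its brightest probe set (234 and 167), although the log2 ratio of another was -0.03. PPIL4 was 1.37-fold lower (227 and 166), PPWD1 1.24-fold (159 and 128) and PPIL3, a spliceosomal member, 1.2-fold (361 and 302). Over the whole family, the values of 15 of 16 genes above 50 were lower, beside 46.5% of all genes, and PPIC was higher. The 15 include PPIA and PPIL2, neither of which has a settled direction, and after quantile normalization or loess 14 of the 16 were lower.

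FKBPs, the unrelated prolyl isomerases that bind FK506, were mixed. Of 11 above 50, 6 were lower and 5 higher. Against 5.72% of all genes lower and 10.4% higher by at least 1.5-fold, 2 FKBPs passed it in each direction. Their median log2 ratio was -0.09 and turned positive with a floor of 25 (0.01), with a floor of 100 (0.10) and with a minimum of 100 in the brighter array (0.10), so the list has no settled direction. FKBP11, an isomerase of secretory cells, had 466 and 208, 2.24-fold lower, and a second probe set was 2.39-fold lower. FKBP4, an HSP90 partner like PPID, had 1415 and 805, 1.76-fold lower, with 1.98-fold in a second probe set. FKBP9 (361 and 642) and FKBP2 (263 and 451), both of the endoplasmic reticulum, were 1.78-fold and 1.72-fold higher. PIN4, the only parvulin with a probe set of its own here, was 1.17-fold higher (622 and 730).

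Partners of the members were taken from lists of their pathways. These lists, like the members, were chosen with earlier results of these data known, so their counts are a description and not a test. Among all genes above 50, 46.5% were lower and 53.5% higher. Of 23 genes above 50 that form, bind or modulate the permeability transition pore that PPIF acts on, 16 were lower and 7 higher, with a median log2 ratio of -0.21 beside -0.88 for PPIF. The median of the list was -0.10 after quantile normalization and -0.07 after loess, with 15 lower and 8 higher in each. At 1.5-fold, 3 were lower and none higher, against 5.72% and 10.4% of all genes. These were HK2, a hexokinase that binds the outer membrane (465 and 192, 2.42-fold), TRAP1, the mitochondrial HSP90 (1307 and 685, 1.91-fold), and the outer-membrane channel VDAC3 (1741 and 1130, 1.54-fold). The other probe set of VDAC3 had a log2 ratio of -0.29. ATP5PO, an ATP synthase subunit, was counted at -0.16, while a dimmer probe set of it had -1.10. In the opposite direction BAK1, a pore-forming BCL2 relative, was 1.24-fold higher (128 and 159) and HK1 1.17-fold higher (391 and 456).

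Of 14 endoplasmic reticulum folding genes that work beside PPIB, 12 were lower and 2 higher (median log2 ratio -0.23), beside 46.5% and 53.5% of all genes. The median was -0.11 after quantile normalization and -0.10 after loess, which left 11 lower. HSPA5, the chaperone BiP, was 1.59-fold lower (3541 and 2234) and SDF2L1 1.44-fold lower (347 and 240). CRTAP, which forms a collagen-modifying complex with PPIB, was 1.08-fold higher (220 and 239). All 11 HSP90 machinery genes above 50, the setting of PPID, were lower, none by 1.5-fold (median -0.26), led by HSP90AB1 at 1.41-fold (6003 and 4259). After quantile normalization and after loess this median was -0.16, with 10 lower and 1 higher. Of 14 spliceosome partners 12 were lower and 2 higher, beside the same shares of all genes (median -0.21, and -0.18 after loess). SNU13 was 1.58-fold lower (240 and 152), and PRPF4, which binds PPIH directly, was 1.41-fold lower (590 and 420). The other probe set of PRPF4 had a log2 ratio of -0.27. SYF2, of the same list, was 1.25-fold higher (241 and 301). Of 8 genes of the calcineurin pathway, the target of the complex of PPIA with cyclosporin A, and of the PPIA receptor BSG, 3 were lower and 5 higher (median 0.16). NFATC2 and RCAN1, both among the 5, were under 50 in the control array, and with a floor of 100 the median was 0.03, with 3 genes in each direction. NFATC3 was 1.55-fold lower (180 and 116) and BSG 1.01-fold lower (429 and 424). Among the higher genes, PPP3CB was 1.41-fold higher (300 and 424) and RCAN3 1.37-fold (336 and 461). Another probe set of PPP3CB had a log2 ratio of -0.08.

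**Figure D3:**
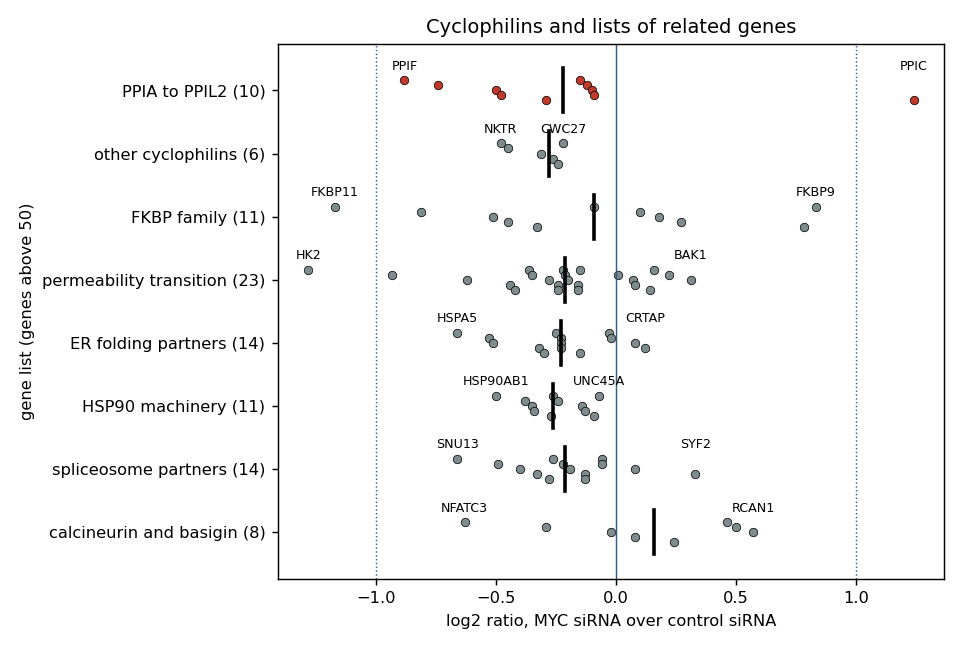
Log2 ratio of the MYC siRNA array to the control array (x) for genes above 50, each by its brightest probe set, for the 10 cyclophilins (red) and 7 lists of related genes (grey), with the number of genes in brackets and the lowest and highest gene named; black bars are list medians and dotted lines mark 2-fold. PPIC at 1.24 lies apart on the right, while all 6 other cyclophilins lie left of 0.

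**Figure D4:**
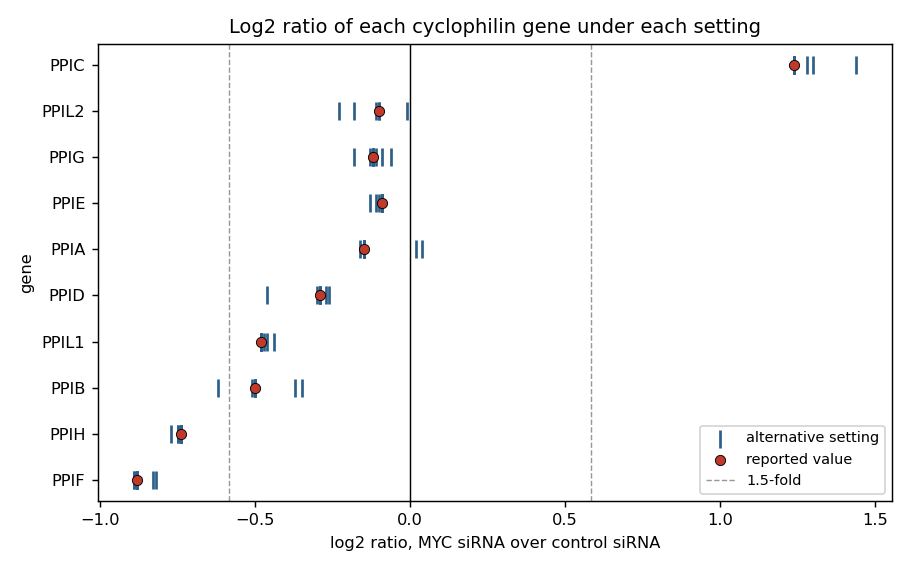
Log2 ratio of the MYC siRNA array to the control array (x) of each cyclophilin gene as reported (red circles) and under each alternative setting that gave a value (blue marks); dashed lines mark 1.5-fold. PPIF stays between -0.89 and -0.82 and PPIC between 1.24 and 1.44, while PPIA has marks on both sides of 0.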

How the data were processed

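The deposited intensity values are linear MAS5 signals of Affymetrix U133 Plus arrays, which the authors computed with affy 1.40.0 and brought to a target mean of 100. Each array's mean, trimmed by 2% at either end, was 100, and beyond this common scaling the arrays were not normalized to each other. The number of arrays, 2, limits the precision.

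Probe sets were named through the platform annotation, with symbols updated by gene identifier to RefSeq (GRCh38.p14); 41097 name 1 gene and 1801 several, and genes are named from the former only. Of 19775 genes, 19734 were in RefSeq. Signals under 50 were set to 50 and log2 ratios of MYC siRNA to control siRNA taken; no fold is given where neither array exceeded 50. A gene took its probe set with the highest mean signal. With 1 array under 50 a fold is a lower bound. Named are MYC, the 10 members, and up to 4 genes per list and direction that reached 100 in the brighter array. Of these list genes a selection is printed. COL1A1, KRT8, CDX1 and CDX2 are named as marker checks, NFATC2 and RCAN1 for their low signal and ATP5PO for its unlike probe sets. Members and lists were chosen with earlier results of these data known. Calculations were tested on simulated data. Alternatives are given with the closing observations. Tools were matplotlib 3.10.9, statsmodels 0.14.6, scipy 1.17.1, pandas 2.3.3 and numpy 2.4.6 under Python 3.11.15.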

Additional observations from a re-analysis of the deposited data

How the results depend on the processing

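The alternatives were floors of 25 and 100, no floor with 1 added, median centring, quantile normalization, loess on mean signal (span 0.3), omission of probe sets whose identifier ends in s_at, x_at or a_at, a minimum of 100 in the brighter array, averaging a gene's probe sets, and a fold threshold of 3. Of the 43 values of the counts and the median of the cyclophilins under these alternatives, 38 moved by less than the criterion (1.5 times a count, or the SD of 0.23 between probe sets) and 5 by more. Leaving out the probe sets ending in s_at, x_at or a_at left 2 cyclophilin probe sets lower by at least 1.5-fold and 1 higher by at least 1.5-fold and by at least 2-fold, since fewer probe sets were counted, and gave a median log2 ratio of -0.48. At 3-fold, 1 probe set, of PPIC, was higher and none lower. The median was -0.31 with the mean over probe sets and -0.22 after loess. No called gene changed direction, PPIF ranging from -0.89 to -0.82, PPIH from -0.77 to -0.74 and PPIC from 1.24 to 1.44. No paired analysis was possible because each condition had 1 array and the labels carry no replicate numbers. Signal over background limits PPIL2 above all, whose probe sets lay near or under 50.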

Other observations

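Prolyl isomerases of the endoplasmic reticulum from both families, a grouping made after the values were seen, spread widely in both directions. Of PPIB, PPIC, FKBP2, FKBP7, FKBP9, FKBP10, FKBP11 and FKBP14, 7 exceeded 50, of which 4 were lower and 3 higher, with log2 ratios from -1.17 for FKBP11 to 1.24 for PPIC. PPIB, FKBP10, FKBP11 and FKBP14 were lower, and PPIC, FKBP2 and FKBP9 higher. Of 14 other folding genes of the same compartment 12 were lower; the median over the 14 of -0.23 on the log2 scale became -0.10 after loess, and is to be read beside the -0.11 of the brightest group of probe sets. No test of this grouping was made.

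PPIB and PPIA, both in use as reference genes, differed from each other on these arrays, with log2 ratios of -0.50 and -0.73 in the probe sets of PPIB and -0.15 in that of PPIA. After loess the brighter probe set of PPIB was at -0.35 and PPIA at 0.04. PPIA rests on 1 probe set above 50, of a type that can bind several transcripts.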
